A study of Mus musculus with 10 samples.

Results

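E-cadherin, encoded by *Cdh1*, and 9 integrin subunits (*Itgae*, *Itgb7*, *Itga4*, *Itgal*, *Itgb1*, *Itgb2*, *Itga1*, *Itga2* and *Itgav*) were followed through 4 conditions of glucose restriction in mouse CD8 T cells. The 10 genes form a list taken from the 53465 genes in the count files, and all 10 were among the 13182 genes that passed the filter on low counts. *Cdh1* was chosen by its measured rise with acetate in these libraries, and as the ligand of the *Itgae*-*Itgb7* integrin, so its values are given as a description with no test. The 9 integrin genes were tested in a fit across all 13182 genes.

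Cells carrying the OT-I receptor transgene on the C57BL/6 background, which makes the T cells specific for the ovalbumin peptide SIINFEKL, were taken from spleens and peripheral lymph nodes. All were activated with that peptide and interleukin-2 (100 U/ml) in 25 mM glucose for 3 days, then held in 1 mM glucose, and all were restimulated with PMA (a phorbol ester) and ionomycin for 4 h at the end. The groups were d9 with acetate (n = 3) and d9 without acetate (n = 3), both after 120 h of restriction, and d5 with acetate (n = 2) and d5 without acetate (n = 2), both after 24 h. Acetate was 5 mM sodium acetate, present for the last day only, so that at d5 it covered the whole restriction. The day names do not equal 3 days of activation plus 1 or 5 days of restriction, and the labels are kept here as given. The labels do not say whether replicates were separate cultures or animals, so p-values measure the spread between these libraries, which may be technical. The cells were kept in culture throughout, and no group held in high glucose is analysed here. d9 and d5 differed at once in hours of restriction, time in culture and total counts, which cannot be told apart in these comparisons.

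Integrins are cell surface receptors made of 1 alpha and 1 beta chain, and a chain without a partner does not normally reach the surface. The partners decide the ligand. Integrin alphaE-beta7 (*Itgae* with *Itgb7*) is the receptor through which CD8 T cells in epithelia hold on to E-cadherin. LFA-1 (*Itgal* with *Itgb2*) binds ICAM-1 in the immune synapse. Integrins alpha1-beta1 and alpha2-beta1 bind collagens, alpha4 pairs with beta1 or beta7 to bind VCAM-1 or MAdCAM-1, and alphav binds matrix ligands that carry the RGD peptide and also latent TGF-beta. E-cadherin itself is a calcium-dependent adhesion molecule best known from epithelial junctions.

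Total counts were 22.97 to 24.66 M in the 6 d9 libraries and 16.59 to 17.97 M in the 4 d5 libraries. The first principal component of all tested genes (66.2% of the variance) separated d9 from d5. Replicate 2 of d9 with acetate and replicate 1 of d9 without acetate stood apart from the other d9 libraries, with 15.1 and 15.4% of counts on ribosomal protein genes against 11.2 to 12.7%, and results that change without this pair are given both ways. At d5, replicate 2 with acetate had 14.0% of counts on these genes, against 10.8 to 12.0% in the other d5 libraries. It stayed in when the pair was left out. *Cd8a* averaged 678, 589, 560 and 333 CPM (counts scaled to library depth by TMM) in d9 with acetate, d9 without, d5 with and d5 without acetate, and all 10 CD8 T cell markers listed were above 1 CPM. In bulk RNA a change in the share of cells that express a gene and a change in the RNA per cell cannot be told apart.

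Coordinates are those of GRCm38. *Cdh1* is at chr8:106603351-106670246 and *Itgb1* at chr8:128685654-128733200. *Itgae* is at chr11:73090583-73147446 and *Itgb7* at chr15:102215995-102231944, on separate chromosomes although their products pair, and the same holds for *Itgal* (chr7:127296260-127335138) and *Itgb2* (chr10:77530252-77565708). *Itga4* (chr2:79255426-79333123) and *Itgav* (chr2:83724397-83806916) share chromosome 2. *Itga1* (chr13:114953096-115101964) and *Itga2* (chr13:114833081-114932100), both on the minus strand, encode the alpha chains of the collagen receptors that pair with *Itgb1*. Exons of *Itga4* overlap those of *Cerkl* on the opposite strand over 1124 bp, those of *Itgav* overlap *Gm13684* on the opposite strand over 634 bp, and those of *Itga1* overlap the gene model *Gm49395* on the same strand over 685 bp. No source used here states whether the counting took strand into account, so reads in these stretches cannot be assigned with certainty.

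The promoters of *Itga1*, *Itga2* and *Itgb1* are shown because their transcripts behaved differently in the comparisons that follow: *Itga1* had the largest d9-to-d5 change of the 9 integrins, *Itga2*, its chromosome 13 counterpart, passed in no comparison, and *Itgb1* was the integrin past the threshold with acetate. Each line is the 250 bases upstream of the gene start on the gene's own strand (RefSeq, GRCm38.p6). Capitals mark matches, on either strand, of the AP-1 motif TGANTCA, the NFAT core GGAAA, the RUNX motif TGTGGT, the SMAD box CAGAC, the GC box GGGCGG, the TATA-box letters TATAAA and the E-box CACCTG. No matches overlapped in these windows.
Itga1 (chr13:115101965-115102214, minus strand): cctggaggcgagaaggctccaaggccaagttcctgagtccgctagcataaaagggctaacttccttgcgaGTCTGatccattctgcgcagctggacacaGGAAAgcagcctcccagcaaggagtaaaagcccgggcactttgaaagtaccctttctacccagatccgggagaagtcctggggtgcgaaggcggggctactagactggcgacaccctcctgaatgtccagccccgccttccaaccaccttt
Itga2 (chr13:114932101-114932350, minus strand): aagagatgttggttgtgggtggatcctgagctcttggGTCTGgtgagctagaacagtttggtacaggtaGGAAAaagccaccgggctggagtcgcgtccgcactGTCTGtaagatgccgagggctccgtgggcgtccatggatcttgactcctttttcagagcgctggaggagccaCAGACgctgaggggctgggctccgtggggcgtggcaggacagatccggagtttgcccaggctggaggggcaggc
Itgb1 (chr8:128685404-128685653, plus strand): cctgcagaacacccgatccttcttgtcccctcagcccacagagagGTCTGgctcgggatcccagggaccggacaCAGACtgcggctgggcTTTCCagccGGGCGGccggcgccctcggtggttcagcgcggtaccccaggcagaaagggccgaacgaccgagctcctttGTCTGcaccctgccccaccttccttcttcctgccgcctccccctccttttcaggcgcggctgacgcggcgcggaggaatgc
The *Itga1* window held 1 NFAT core and 1 SMAD box, the *Itga2* window 1 NFAT core and 3 SMAD boxes, and the *Itgb1* window 1 NFAT core, 3 SMAD boxes and 1 GC box. Among 32851 mouse promoters of the same length, 55.6% held the NFAT core, 42.2% the SMAD box and 32.7% the GC box, so each of these matches is common. AP-1, RUNX, TATA and E-box letters, held by 6.75, 14.0, 12.4 and 17.2% of promoters, were in none of the 3 windows. The GC content was 57.6, 60.8 and 68.0% in *Itga1*, *Itga2* and *Itgb1*, against a median of 52.4% over all promoters. The table held promoters of 6 of the 10 genes.

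Levels per transcript length were compared in TPM, computed from the counts and the union of annotated exons. LFA-1 dominated: *Itgal* averaged 646, 681, 491 and 448 TPM in d9 with acetate, d9 without, d5 with and d5 without acetate, and *Itgb2* averaged 421, 510, 407 and 436 TPM in the same order. The next were the shared beta chains *Itgb1* (282, 217, 301 and 196 TPM) and *Itgb7* (172, 226, 136 and 138 TPM), then *Itgav* (35.8, 27.98, 20.8 and 32.4 TPM). *Itgal* and *Itgb2* overlapped between libraries in both groups without acetate, as did *Itgb7* and *Itgb1* in d9 without acetate, whereas the libraries of the other neighbours down to *Itgav* did not overlap in any group. *Cdh1* took the sixth place at d9, with 19.2 TPM with acetate and 16.7 TPM without, and was below *Itgae* at d5, with 1.29 and 0.370 TPM. *Itgae* (1.88, 2.43, 2.06 and 3.09 TPM), *Itga2* (1.52, 1.58, 1.11 and 1.35 TPM) and *Itga1* (1.12, 1.13, 0.0764 and 0.0457 TPM) were scarce, and *Itga4* stayed between 0.0785 and 0.216 TPM. Using the longest annotated transcript in place of the exon union exchanged only *Itga1* and *Itga2*, at d9.

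**Figure D1:**
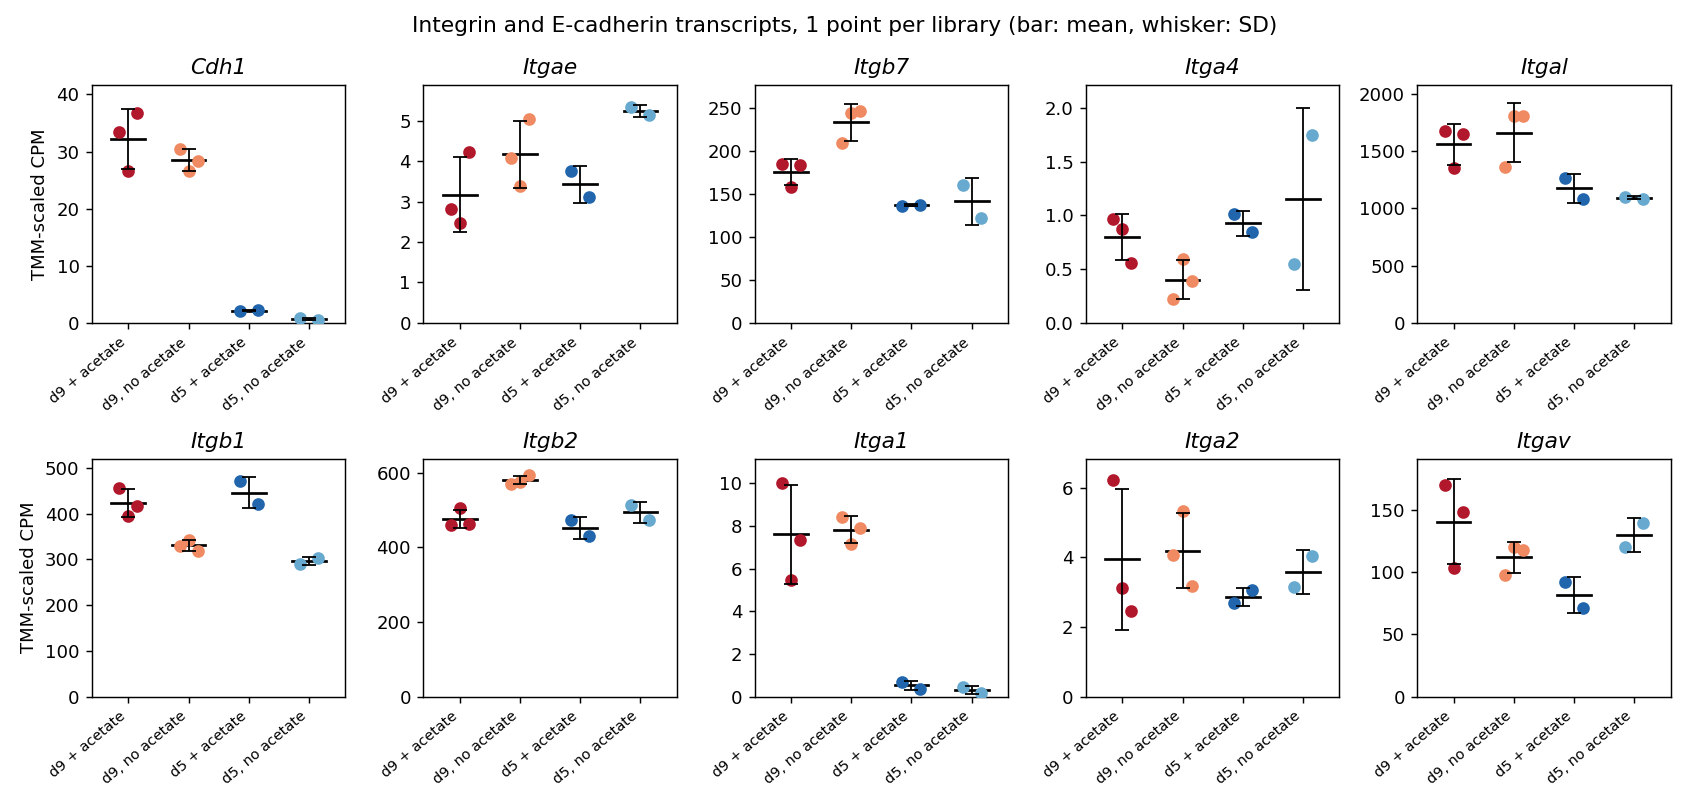
TMM-scaled CPM (vertical axis, linear, from 0) of the 10 genes in each library, by group; bars are group means and whiskers SD (n = 3 at d9, n = 2 at d5). *Cdh1* and *Itga1* sit near 0 at d5 and above it at d9, and all 5 acetate points of *Itgb1* lie above all 5 points without acetate.

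The mouse has 27 integrin subunit genes in these files, 18 alpha and 9 beta, and 14 of them reached a group mean of 1 TPM (10 alpha and 4 beta). *Itgb7* and *Itgb1* transcripts exceeded the sums of their alpha partners. *Itgae* and *Itga4*, the only alpha partners of beta7, together amounted to 1.18 ± 0.24, 1.12 ± 0.20, 1.65 ± 0.24 and 2.46 ± 0.54% of *Itgb7* TPM (SD) in d9 with acetate, d9 without, d5 with and d5 without acetate, and over 90% of that sum was *Itgae* in every group. The 12 alpha partners of beta1 summed to 22.0, 22.4, 14.9 and 33.8% of *Itgb1*, and *Itgav* was the most abundant of them throughout, at 46.4 to 57.3% of the sum. *Itgal* transcripts, in contrast, amounted to 153 ± 25, 133 ± 19, 121 ± 4.7 and 103 ± 4.5% of *Itgb2*. These are ratios of transcript levels, and protein was not measured here.

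**Figure D2:**
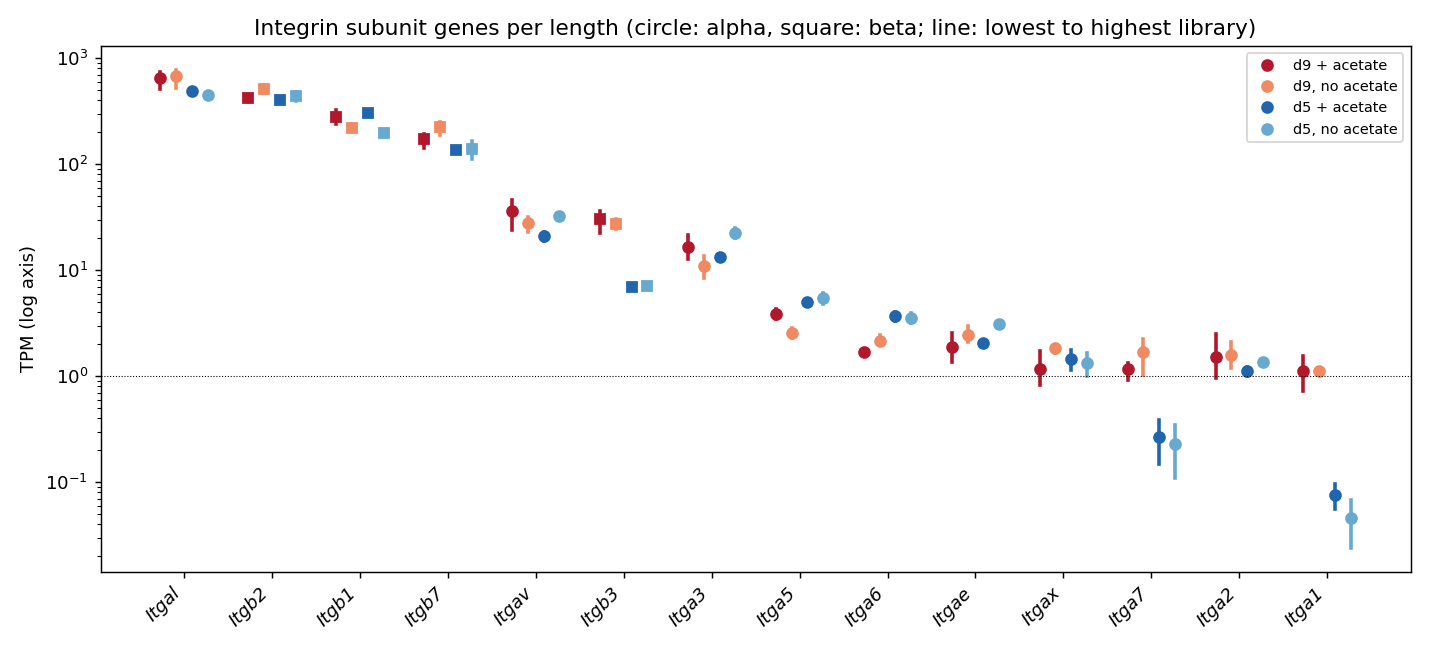
TPM (vertical log axis) of the 14 integrin subunit genes with a group mean of at least 1 TPM, ordered by their highest group mean; circles are alpha and squares beta chains, and lines run from the lowest to the highest library. *Itgal*, *Itgb2*, *Itgb1* and *Itgb7* stand above the rest, and *Itga1*, *Itga7* and *Itgb3* show the widest gap between d9 and d5.

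*Cdh1*, the ligand, was the gene with the widest range. In d9 with acetate it had 33.4, 26.5 and 36.8 CPM, against 30.5, 26.7 and 28.3 CPM in d9 without acetate. In d5 with acetate it had 2.07 and 2.21 CPM (37 and 42 counts), against 0.772 and 0.467 CPM (14 and 8 counts) in d5 without acetate. Every d9 library was thus above every d5 library, the acetate groups did not overlap at d5, and they overlapped at d9. Such separation was common. Of all tested genes, 59% did not overlap between the acetate groups at d5. For d9 against d5, 62.5% did not overlap with acetate and 63.1% without. The log2 difference of acetate against no acetate was 0.18 ± 0.15 (SE) at d9 and 1.77 ± 0.30 at d5, a 3.41-fold difference that rests on counts of 8 to 42. That of d9 against d5 was 3.91 ± 0.21 with acetate (15.01-fold) and 5.50 ± 0.25 without (45.3-fold), and the difference of the acetate effects (d9 minus d5) was -1.59 ± 0.34. Across the alternative settings the acetate difference ranged from 1.46 to 2.18 at d5 and from 0.07 to 0.37 at d9. Because *Cdh1* was chosen for its response, none of these values is a test.

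E-cadherin is an epithelial protein, so markers of epithelium were read beside it. The summed level of 11 epithelial markers (*Cdh1* not among them) was 7.89 to 8.35 CPM in d9 with acetate, 11.1 to 14.7 CPM in d9 without, 10.9 to 12.9 CPM in d5 with and 20.3 to 21.4 CPM in d5 without acetate. It was thus lower with acetate at both days and lower at d9 than at d5 within each acetate state. *Krt8*, *Cldn3* and *Krt14* had 0 counts in all 10 libraries, and 9 of the 11 markers stayed under 1 CPM in every group mean. The sum was nearly all *Epcam*, at 7.19, 12.5, 9.52 and 19.1 CPM. The summed NK cell markers were 53.4 to 61.3, 39.6 to 44.2, 11.3 to 12.1 and 7.71 to 9.05 CPM in the same group order. This sum moved with *Cdh1* between d9 and d5. Most of it was *Eomes*, which had the highest group mean, and *Klrb1c*. *Ncr1*, *Klra8*, *Klra4* and *Klra1*, 4 of the 8 NK cell markers, stayed under 1 CPM in every group mean. The part of the NK cell markers in the result was not tested. Likewise the 9 neutrophil and mast cell markers summed to 86.1 to 151, 54.6 to 102, 13.4 to 16.6 and 8.996 to 9.05 CPM, nearly all of it *Kit*, while *S100a8*, *S100a9*, *Retnlg*, *Camp* and *Mcpt4* were at 0 counts throughout. The 9 dendritic and Langerhans cell markers also moved with *Cdh1*, at 85.4 to 115, 79.0 to 82.3, 43.0 to 48.3 and 28.3 to 30.1 CPM. *Zbtb46* was the highest of them, *Clec9a*, *Siglech*, *Cd207* and *Cd209a* were at 0 counts, and 6 of the 9 stayed under 1 CPM. The part of the mast and dendritic cell markers in the result was not tested either.

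*Itgae* and *Itgb7*, the 2 chains of the E-cadherin receptor, did not pass the test with acetate at either day. *Itgae* had 2.82, 2.47 and 4.22 CPM in d9 with acetate, against 4.08, 3.39 and 5.05 CPM in d9 without acetate. It had 3.76 and 3.10 CPM in d5 with acetate, against 5.35 and 5.14 CPM in d5 without acetate. The means were lower with acetate at both days, and the libraries overlapped at d9 and did not at d5. The log2 fold change with acetate was -0.39 ± 0.23 at d9 and -0.61 ± 0.29 at d5, and neither passed in edgeR's quasi-likelihood test with Benjamini-Hochberg adjustment over 13182 genes (adjusted p = 0.466 and 0.264). Averaged over both days it was -0.50 ± 0.18 (edgeR adjusted p = 0.128). Between d9 and d5 *Itgae* differed by -0.11 ± 0.27 on the log2 scale with acetate and -0.33 ± 0.25 without (edgeR adjusted p = 0.764 and 0.327). At 54 to 116 counts per library, *Itgae* is measured less precisely than its partner.

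*Itgb7* had 184, 158 and 183 CPM in d9 with acetate, against 209, 243 and 246 CPM in d9 without acetate. It had 136 and 137 CPM in d5 with acetate, against 160 and 122 CPM in d5 without acetate. The d9 libraries with acetate all lay below those without, and the d5 groups overlapped. The acetate difference on the log2 scale was -0.41 ± 0.12 at d9 and -0.05 ± 0.15 at d5, and neither passed (edgeR adjusted p = 0.187 and 0.896). *Itgb7* was 1.65-fold higher in d9 than in d5 without acetate (log2 0.72 ± 0.14, edgeR adjusted p = 0.00286), with all 3 d9 libraries above both d5 libraries. With acetate the same contrast was 0.36 ± 0.14 (edgeR adjusted p = 0.0632), and it passed without the pair of d9 libraries that stood apart (adjusted p = 0.0112). The difference of the acetate effects was not past the threshold (-0.37 ± 0.20, edgeR adjusted p = 0.700).

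With acetate at d9, none of the 9 integrins passed, beside 4 of all 13182 genes (0.0303%). At an unadjusted p under 0.05 there were 3 (*Itgb1*, *Itgb7* and *Itgb2*), where 15.4% of all genes were, and the DESeq2 Wald test called 1, *Itgb1* (adjusted p = 0.0156). At d5, 1 of the 9 was higher with acetate, *Itgb1*, where 0.66% of all genes were called higher, 0.865% lower and 1.52% in either direction. The libraries of the 2 groups did not overlap for 1 integrin that was higher and 2 that were lower with acetate at d9, where 18.7% of all genes did not overlap, and for 1 higher and 4 lower at d5, where 59% did not. The median log2 change of the 9 integrins was -0.09 at d9 and -0.13 at d5, against 0.01 and 0.01 over all tested genes. Averaged over the 2 days, *Itgb1* was again the 1 integrin called, where 3.35% of genes were called higher, 2.54% lower and 5.89% in either direction, and the integrin median was -0.17 against 0.00 over all genes.

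*Itgb1*, the beta chain of the collagen, fibronectin and VCAM-1 receptors, had 457, 395 and 418 CPM in d9 with acetate, against 329, 343 and 319 CPM in d9 without acetate. It had 471 and 422 CPM in d5 with acetate, against 291 and 303 CPM in d5 without acetate. All 5 libraries with acetate lay above all 5 without, whatever the day. The mean was 447 ± 35 CPM with and 297 ± 8.4 CPM without acetate at d5 (SD, n = 2 each), a 1.5-fold rise (log2 0.59 ± 0.12, edgeR adjusted p = 0.0412). At d9 the fold was 1.28 (log2 0.36 ± 0.10) and did not pass (edgeR adjusted p = 0.161). The average over both days was 0.47 ± 0.08 (edgeR adjusted p = 0.0130), and the effects at the 2 days did not differ past the threshold (-0.23 ± 0.15, edgeR adjusted p = 0.709). The d5 call was lost without any 1 of the 4 d5 libraries (adjusted p = 0.199 to 0.253) or without replicate 3 of d9 with acetate or replicate 2 or 3 of d9 without (0.0604 to 0.0783), and with library size as the only scaling (0.0563). The averaged call was lost without any 1 of the d5 libraries (0.0508 to 0.0731). Between d9 and d5 *Itgb1* differed by -0.08 ± 0.11 with acetate and 0.16 ± 0.11 without, neither past the threshold (edgeR adjusted p = 0.596 and 0.290).

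**Figure D3:**
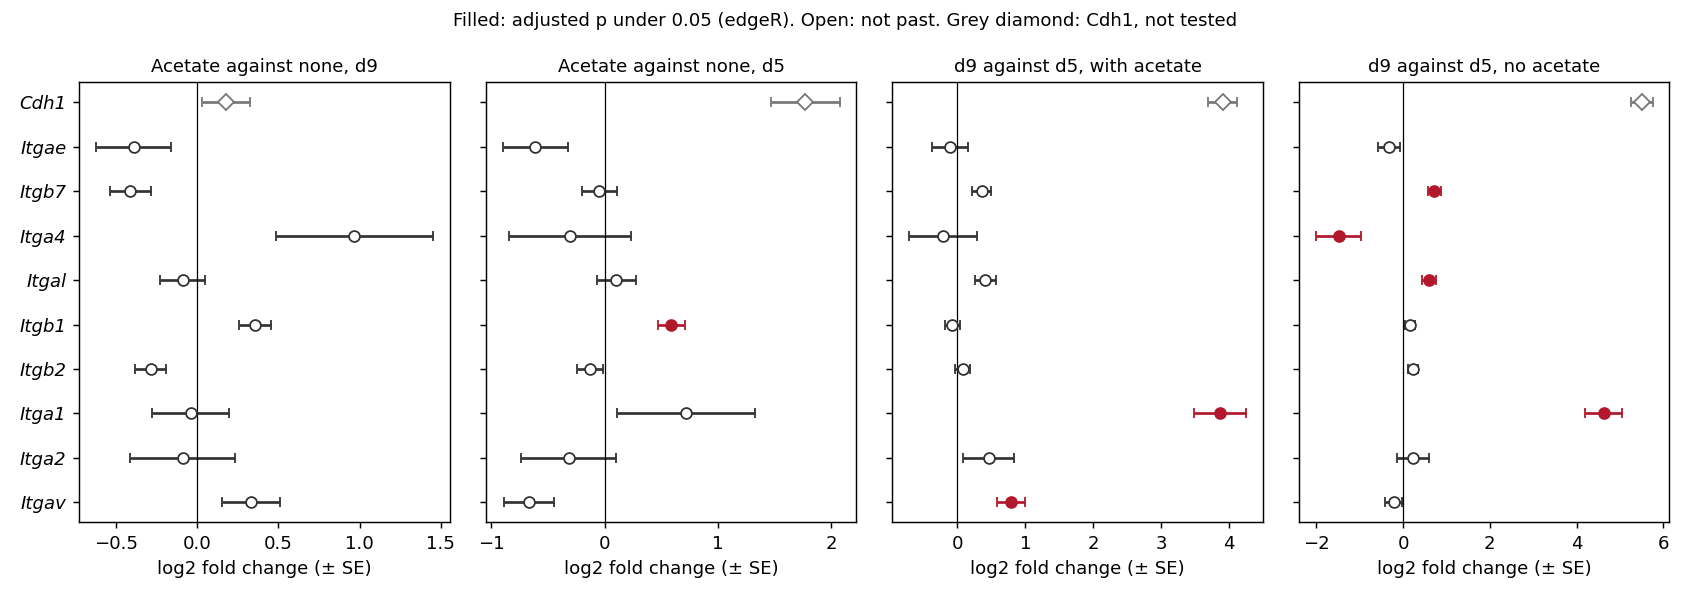
Log2 fold change with its standard error (horizontal axes, each panel with its own range) of each gene in 4 comparisons, with acetate against without and d9 against d5. Filled points passed an edgeR adjusted p of 0.05, open circles did not, and *Cdh1* (grey diamond) was not tested; *Itga1* lies at 3.87 with and 4.63 without acetate for d9 against d5.

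*Itgb2*, the beta chain of LFA-1, and its partner *Itgal* did not pass with acetate at either day. *Itgb2* had 460, 505 and 463 CPM in d9 with acetate, against 571, 576 and 593 CPM in d9 without acetate. In d5 it had 474 and 430 CPM with acetate, against 513 and 474 CPM without. The *Itgb2* groups did not overlap at d9, yet the difference of -0.29 ± 0.09 did not pass (edgeR adjusted p = 0.210), nor did that at d5 (-0.13 ± 0.12, adjusted p = 0.570). The average over the days was -0.21 ± 0.08 (edgeR adjusted p = 0.126, and 0.0315 without the pair of d9 libraries that stood apart). *Itgal* had 1679, 1356 and 1647 CPM in d9 with acetate and 1365, 1808 and 1809 CPM in d9 without. In d5 it had 1263 and 1085 CPM with acetate and 1101 and 1083 CPM without. The lowest *Itgal* library of each d9 group was the one that stood apart. *Itgal* differed by -0.09 ± 0.14 with acetate at d9 and 0.10 ± 0.17 at d5 (edgeR adjusted p = 0.820 and 0.776).

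Between the days *Itgal* was higher in every d9 library than in every d5 library. With acetate the log2 change was 0.41 ± 0.16 (edgeR adjusted p = 0.0587), and it passed without the pair of d9 libraries that stood apart (adjusted p = 0.00128). Without acetate it rose 1.52-fold (log2 0.60 ± 0.16, edgeR adjusted p = 0.0131), and this call was lost without either d5 library of that comparison (adjusted p = 0.0775 and 0.0854). *Itgb2* differed by 0.07 ± 0.11 with acetate and 0.23 ± 0.11 without, and neither passed (edgeR adjusted p = 0.594 and 0.109). No test was made of the *Itgal* to *Itgb2* transcript ratio, whose group means were higher at d9.

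In d9 against d5 with acetate, 2 of the 9 integrins rose (*Itga1* and *Itgav*) and none fell, where 18.5% of all tested genes rose and 23.1% fell. Without acetate 3 rose (*Itga1*, *Itgb7* and *Itgal*) and 1 fell (*Itga4*), where 15.9% of all genes rose and 21.2% fell. In either direction 41.6% of genes passed with and 37.1% without acetate. Libraries of d9 and d5 did not overlap for 4 integrins with acetate, all higher at d9, where 62.5% of all genes did not overlap, and for 5 higher and 1 lower without acetate, where 63.1% did not. The integrin median was 0.36 with acetate and 0.23 without, against -0.01 over all genes in both. The comparison of acetate at a day and that of d9 against d5 use some of the same libraries, so their values stand side by side and are not independent.

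*Itga1*, the alpha chain of the collagen IV receptor and a marker of tissue-resident CD8 cells, changed most among the integrins. It had 10.0, 5.45 and 7.33 CPM in d9 with acetate (238, 119 and 172 counts) and 0.673 and 0.368 CPM in d5 with acetate (12 and 7 counts). Without acetate it had 8.42, 7.15 and 7.92 CPM at d9 (188, 169 and 182 counts) and 0.441 and 0.175 CPM at d5 (8 and 3 counts). All 6 d9 libraries exceeded all 4 d5 libraries. The rise was 14.6-fold with acetate (log2 3.87 ± 0.38, edgeR adjusted p = 5.02e-05) and 24.7-fold without (log2 4.63 ± 0.42, edgeR adjusted p = 2.76e-05), and it passed in all 19 alternatives of both comparisons. Even at d9 its level was 1.12 TPM with acetate and 1.13 TPM without. Acetate made no difference past the threshold at d9 (-0.04 ± 0.24) or at d5 (0.72 ± 0.61; edgeR adjusted p = 0.962 and 0.536).

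*Itga2*, the alpha chain of the collagen I receptor, passed in no comparison. It had 6.24, 3.11 and 2.47 CPM in d9 with acetate and 4.08, 5.33 and 3.18 CPM in d9 without. In d5 it had 2.69 and 3.05 CPM with acetate and 3.14 and 4.03 CPM without. The d9 and d5 libraries overlapped in both acetate states, and d9 against d5 gave 0.46 ± 0.38 with and 0.23 ± 0.37 without acetate (edgeR adjusted p = 0.356 and 0.665). The acetate differences were -0.09 ± 0.32 at d9 and -0.32 ± 0.42 at d5 (edgeR adjusted p = 0.934 and 0.713).

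*Itgav*, the alpha chain of RGD-binding integrins, had a positive acetate difference at d9 and a negative one at d5, neither past the threshold. It had 170, 103 and 148 CPM in d9 with acetate, against 97.4, 120 and 118 CPM in d9 without acetate. It had 91.6 and 71.2 CPM in d5 with acetate, against 120 and 139 CPM in d5 without acetate. Acetate libraries were the lower ones at d5 without overlap, and the groups overlapped at d9 through the acetate library that stood apart. The log2 changes with acetate were 0.33 ± 0.18 at d9 and -0.67 ± 0.22 at d5 (edgeR adjusted p = 0.421 and 0.145), and that at d5 passed without the pair of d9 libraries that stood apart (0.00553). The d5 change also passed in edgeR without a filter beyond 1 count (adjusted p = 0.0207) and with only the libraries compared (0.0170). The difference of the acetate effects was 1.00 ± 0.29, with an unadjusted p of 0.00503 and an edgeR adjusted p of 0.383. The difference passed in edgeR without that pair (adjusted p = 0.0174) and without a filter beyond 1 count (0.0189). *Itgav* was the 1 integrin of 9 under an unadjusted 0.05 for that difference, where 7.7% of all genes were. In the main edgeR fit none of the 9 and none of the 13182 genes (0%) passed, and the DESeq2 Wald test and limma-voom called none of the 9.

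With acetate, *Itgav* was 1.73-fold higher in d9 than in d5 (log2 0.79 ± 0.21, edgeR adjusted p = 0.0114), and the lowest d9 library was above the highest d5 library. This call was lost without replicate 2 of d5 with acetate (log2 0.62, adjusted p = 0.106). Without acetate *Itgav* differed by -0.21 ± 0.20 (edgeR adjusted p = 0.427). *Itgav* relative to its partner *Itgb1* was 12.5 ± 2.3, 12.8 ± 1.4, 6.90 ± 0.69 and 16.6 ± 1.3% of TPM in d9 with acetate, d9 without, d5 with and d5 without acetate (SD), so d5 with acetate held the lowest share.

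*Itga4*, the alpha chain of VLA-4 and of the gut-homing alpha4-beta7, was near the lower limit of measurement. It had 23, 19 and 13 counts in d9 with acetate and 5, 14 and 9 counts in d9 without. In d5 it had 18 and 16 counts with acetate and 10 and 30 counts without. The groups overlapped at both days and between days. It was called lower in d9 than in d5 without acetate (log2 -1.48 ± 0.53, edgeR adjusted p = 0.0467), but replicate 2 of d5 without acetate carried the call: without that library the change was -0.44. Without the pair of d9 libraries that stood apart it was -1.23 and did not pass (edgeR adjusted p = 0.0936). The call was lost in 11 of 18 alternatives. The changes with acetate were 0.97 ± 0.48 at d9 and -0.31 ± 0.54 at d5, and d9 against d5 with acetate gave -0.21 ± 0.50 (edgeR adjusted p = 0.376, 0.791 and 0.756).

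Among the other 18 integrin subunits, 10 were tested and none passed with acetate at d9, at d5 or on average in edgeR. Between the days 3 rose and 2 fell with acetate, and 3 rose and 3 fell without, where 41.6 and 37.1% of all genes passed in either direction. *Itgb3*, which pairs with alphav to form the vitronectin receptor, averaged 65.3 ± 11.2 CPM in d9 and 14.96 ± 0.25 CPM in d5 with acetate (log2 2.13 ± 0.20, edgeR adjusted p = 3.16e-05), and 60.7 ± 9.6 and 15.7 ± 2.4 CPM without (1.95 ± 0.19, adjusted p = 4.69e-05). *Itga7*, a laminin receptor chain, rose by 2.16 and 2.91, and *Itga9* by 2.03 and 2.56 on the log2 scale with and without acetate. These rises start from low levels. *Itga7* averaged 0.776 CPM with and 0.672 CPM without acetate at d5. *Itga9* averaged 0.901, 0.869, 0.212 and 0.144 CPM in d9 with acetate, d9 without, d5 with and d5 without acetate. *Itga6*, another laminin receptor chain, fell by 1.08 with acetate, and *Itga5*, the fibronectin receptor chain, fell by 1.10 without. In the other acetate state the d9 means were lower too. They were 7.29 CPM in d9 and 11.9 CPM in d5 without acetate for *Itga6*, and 6.98 and 8.97 CPM with acetate for *Itga5*. The median log2 change of the 10 was -0.34 with acetate and 0.23 without, against -0.01 over all genes. *Itgb3* is also a platelet gene, and 6 of 7 platelet markers, *Itgb3* being the exception, stayed under 1 CPM.

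The ligands and counter-receptors of these integrins were read from a list of 22 genes, 14 of them tested. In d9 against d5, 6 rose and 3 fell with acetate, where 18.5% of all genes rose and 23.1% fell, and 6 rose and 2 fell without, where 15.9% rose and 21.2% fell. *Icam1*, the ligand of LFA-1, averaged 605 ± 59 CPM in d9 and 210 ± 6.2 CPM in d5 without acetate (log2 1.53 ± 0.12, edgeR adjusted p = 1.14e-05). *Spp1* (osteopontin), an RGD protein bound by alphav and alpha9 integrins, averaged 386 ± 132 CPM in d9 and 65.0 ± 23.8 CPM in d5 without acetate (log2 2.57 ± 0.39, adjusted p = 6.69e-04 in the same edgeR test), and *Lama5*, a laminin chain, rose by 1.89. *Thbs1*, thrombospondin 1, fell by 3.62 on the log2 scale at under 2 CPM. With acetate at d5, *L1cam* alone passed, where 0.865% of all genes were called lower, at 0.894 ± 0.075 CPM with and 2.30 ± 0.11 CPM without acetate (log2 -1.35 ± 0.25, edgeR adjusted p = 0.0342). On average over the days *L1cam* was lower and *Pecam1* higher, where 2.54% of all genes were called lower and 3.35% higher. None passed at d9. The list medians were -0.05 at d9 and -0.07 at d5 for acetate.

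Integrin function also depends on the talin, kindlin, Rap1 and focal adhesion proteins inside the cell, a list of 44 genes with 40 tested. At d5, where 0.865% of all genes were called lower, 2 of them were lower with acetate, *Vcl* (vinculin), with 29.9 ± 7.4 CPM with and 111 ± 17 CPM without acetate (log2 -1.89 ± 0.28, edgeR adjusted p = 0.0179), and *Ptk2b* (the kinase PYK2), with 199 ± 19 and 316 ± 35 CPM (-0.67 ± 0.14, adjusted p = 0.0490). Averaged over the days 2 were higher, the GTPase *Rap1a* (0.60 ± 0.10, edgeR adjusted p = 0.0115) and *Cytip* (0.59 ± 0.15, adjusted p = 0.0443), and 3 were lower, *Vcl* and *Ptk2b* among them. Of all genes, 3.35% were called higher and 2.54% lower in that comparison. None passed at d9. Between d9 and d5, 14 rose and 8 fell with acetate, beside 18.5 and 23.1% of all genes, and 10 rose and 8 fell without, beside 15.9 and 21.2%. The tetraspanin *Cd81* fell most in both, by 5.73 with acetate, and fell by 4.79 without, on the log2 scale, *Tln2* (talin 2) fell by 2.34 with acetate and fell by 2.56 without, and *Pxn* (paxillin) rose by 1.82 with acetate. The list median for d9 against d5 was 0.13 with acetate and 0.22 without.

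Genes that work with E-cadherin were set beside *Cdh1*. Of 21 cadherins, catenins and E-cadherin partners, 13 were tested and none passed with acetate at either day in edgeR. *Ctnnb1* (beta-catenin) averaged 242 ± 9.6 CPM with and 216 ± 2.9 CPM without acetate at d9. *Ctnna1* (alpha-catenin) averaged 103 ± 4.2 CPM with and 157 ± 4.7 CPM without acetate at d5 (log2 -0.61 ± 0.14, edgeR adjusted p = 0.0631). Between the days 5 rose and 2 fell with acetate, and 1 rose and 2 fell without; of all genes 18.5% rose and 23.1% fell with acetate, and 15.9% rose and 21.2% fell without. *Klrg1*, an inhibitory lectin of effector T cells that binds E-cadherin, rose by 2.12 ± 0.48 with acetate and 1.80 ± 0.48 without (edgeR adjusted p = 0.00554 and 0.0140). *Adam10*, the protease that sheds E-cadherin, was lower in d9 than in d5 in both acetate states. It fell by 1.54 on the log2 scale with acetate. Without acetate it averaged 35.9 CPM in d9 and 101.2 CPM in d5 (edgeR adjusted p = 6.79e-04). *Jup* (plakoglobin) rose by 2.13 between the days with acetate. Without acetate its mean was also higher in d9 (14.8 against 6.42 CPM), but it did not pass.

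Regulators of *Cdh1* known from epithelia were 16 genes, 11 tested, and none passed with acetate. Between d9 and d5, 3 rose and 2 fell with acetate, and 2 rose and 4 fell without, where 41.6 and 37.1% of all genes passed in either direction. *Twist1*, a repressor of *Cdh1* in epithelia, averaged 1.06 ± 0.47 CPM in d9 and 7.24 ± 2.13 CPM in d5 with acetate (log2 -2.75 ± 0.33, edgeR adjusted p = 1.34e-04), and 0.772 ± 0.174 and 9.97 ± 2.04 CPM without (-3.69 ± 0.33, adjusted p = 2.63e-05). *Snai1*, another such repressor, moved the other way, up by 3.18 with acetate and 1.67 without, and *Esrp2*, an epithelial splicing factor, rose by 2.06 and 2.65, with both d5 means under 1 CPM.

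Regulators of *Itgae* and of tissue residency, 28 genes with 26 tested, included 13 that rose and 3 that fell in d9 against d5 with acetate, and 8 that rose and 2 that fell without. Over all genes 18.5% rose and 23.1% fell with acetate, and 15.9% rose and 21.2% fell without. *Prdm1* (Blimp-1) averaged 33.3 ± 4.7 CPM in d9 and 5.93 ± 0.20 CPM in d5 without acetate (log2 2.49 ± 0.34, edgeR adjusted p = 3.39e-04). *Hic1*, a repressor found in intestinal resident T cells, rose by 4.03 with acetate and 4.23 without, and *Eomes*, a T-box factor of effector and memory cells, by 3.13 and 2.37. At d5 *Hic1* averaged only 0.435 CPM with and 0.256 CPM without acetate. *Smad3*, the TGF-beta signal transducer that acts on *Itgae*, rose by 2.37 with acetate, and without acetate it averaged 35.5 ± 6.0 CPM in d9 and 10.8 ± 1.2 CPM in d5. *Klf2*, a factor whose transcript is low in resident T cells, rose too, at 4.05 ± 1.30 CPM in d9 and 0.962 ± 0.122 CPM in d5 without acetate (log2 2.07 ± 0.33, edgeR adjusted p = 8.75e-04). The genes that fell, named after their values were seen, were the TGF-beta receptor gene *Tgfbr1* (log2 -1.68 with acetate and -1.72 without), the T-box factor gene *Tbx21* (-1.03 and -1.38) and, with acetate, the activation and residency marker *Cd69* (-1.37). With acetate only *Tgfbr3* passed, on average over the days (0.84 ± 0.20, edgeR adjusted p = 0.0359), where 3.35% of all genes were called higher. The list median for d9 against d5 was 0.86 with acetate and 0.40 without.

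The genes nearest to *Cdh1*, *Itgae* and *Itgb7* in profile were ranked by the root mean square difference of centred log2 CPM over the 10 libraries, among 9783 protein-coding genes. For *Cdh1* they were *Tgm2* (0.514), *Pou6f1* (0.522), *Gzma* (0.558), *Slc24a3* (0.575) and *Gzmf* (0.579), against a median of 2.36 over all candidates. *Tgm2* averaged 15.1, 10.8, 0.382 and 0.0844 CPM and *Gzma* 2432, 2304, 189 and 117 CPM in d9 with acetate, d9 without, d5 with and d5 without acetate. For *Itgae* they were *Hdac6* (0.166), *F8a* (0.189), *Mfge8* (0.192), *Btbd6* (0.194) and *Sh3gl1* (0.195; median 0.465). For *Itgb7* they included *Myo1f* (0.0996), *Fam78a* (0.101), *Osbpl5* (0.113) and *Kctd2* (0.113; median 0.419).

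**Figure D4:**
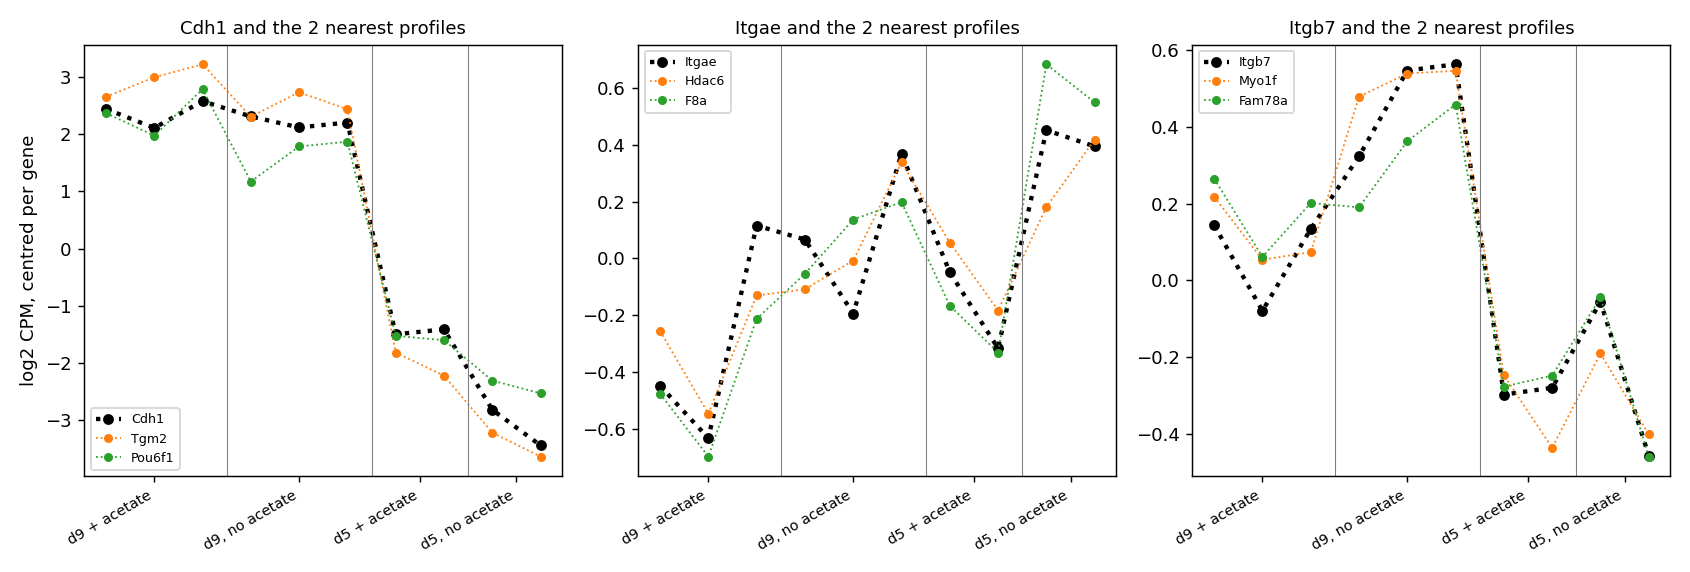
Log2 CPM of *Cdh1*, *Itgae* and *Itgb7* (black) and the 2 genes nearest to each in profile (colours), centred per gene; each point is a library, ordered by group, and dotted lines only link points of 1 gene. *Cdh1* and its neighbours step up at d9, *Itgb7* and its neighbours are highest in d9 without acetate, and *Itgae* is highest in d5 without acetate.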

How the data were processed

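Polyadenylated RNA was sequenced on an Illumina instrument from stranded libraries, per the labels' protocols. The deposited files hold raw counts per gene, 1 file per sample. STAR, featureCounts, deepTools, DESeq2 and GRCm38 are named in the submitters' processing notes, without roles; versions, settings and annotation are not stated there. Identifiers were matched to GENCODE M21 (53360 of 53465 genes had a symbol).

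The counts were analysed with edgeR 4.0.16 in R 4.3.3. TMM factors scaled the libraries, filterByExpr removed low genes, and a robust quasi-likelihood fit of 4 group means to all 10 libraries left 6 residual degrees of freedom. The threshold was a Benjamini-Hochberg adjusted p of 0.05 over 13182 genes. An SE was obtained from the log2 fold change and its F value (|log2 fold change|/√F). TPM used the union of exon lengths. Alternatives changed the scaling (DESeq2 size factors, or library size only), the filter (none beyond 1 count, or 2 CPM in 2 samples), the tool (DESeq2 1.42.0 Wald test, limma-voom 3.58.1) or the libraries (only those compared, each left out in turn), or added a replicate block; leaving out the 2 d9 libraries that stood apart was added after seeing the data. The scripts were tested on simulated data. Depth was 16.59 to 24.66 M counts. Replicates of a group differed by more than sampling noise (chi-square per degree of freedom 5.63 to 70.4).

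The members, gene lists and tests were chosen with earlier results of these data known. All 10 members were named. From each list came up to 4 genes past the threshold with the largest change, or failing those the 2 with the smallest p, and for 3 members the 5 nearest profiles (mean log2 CPM at least 1). Some single-gene values are left out of the text.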

Additional observations from a re-analysis of the deposited data

How the results depend on the processing

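Of 1000 recomputed values of the 9 integrins, over 54 combinations of gene and comparison, 925 kept their direction and side of the threshold. Most of the 54 were not past it as reported. With acetate, the *Itgb1* call held in 10 of 19 alternatives at d5 and 14 of 18 on average. For d9 against d5, *Itga1* held in all 19 in both acetate states and *Itgav* with acetate in 18 of 19. Without acetate *Itgb7* held in 19 of 19, *Itgal* in 17 of 19 and *Itga4* in 7 of 18. The number of integrins called with acetate at d5 (1) was 0 with library size only and with the replicate block, and 2 without a filter, with only the libraries compared and without the 2 d9 libraries that stood apart (0 to 1 leaving out single libraries). With acetate at d9 (0) the DESeq2 Wald test called 1. On average over the days (1) it was 2 without the 2 d9 libraries (0 to 1). For d9 against d5 with acetate (2) it was 4 with DESeq2 size factors, without a filter, with the DESeq2 Wald test and without the 2 d9 libraries (1 to 4), and without acetate (4) it was 2 to 4 leaving out single libraries. For the difference of acetate effects (0) it was 1 without a filter and without the 2 d9 libraries. The replicate block changed the count of all genes called with acetate at d5 to 62, against 201, and on average to 484, against 777; *Itgb1* at d5 then had an adjusted p of 0.0803 in edgeR. Same-numbered libraries with and without acetate had r = -0.14, -0.39 and 0.33 at d9 and 0.03 at d5, and those of d9 and d5, with 2 numbers in common, 0.16 and 0.22 with acetate and 0.16 and 0.11 without, so the numbers were not taken to pair the samples. Unlike-numbered libraries at d9 had r from -0.43 to 0.51. At d5, with 2 libraries per group, unlike-numbered ones had -0.03, the same size by construction, so that value says little about pairing. The cause of the shifts in the counts of genes called was not tested.

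Over all genes, the counts with acetate at d9 (4) were 197 without a filter, 335 with the DESeq2 Wald test and 213 without the 2 d9 libraries (0 to 18 leaving out single libraries). At d5 (201) they were 578, 786 and 2162, and 1701 with only the libraries compared (0 to 498). On average (777) they were 1435 with the Wald test and 2667 without the 2 d9 libraries (27 to 1659), and for the difference (0) 99, 102 and 255 (0 to 1). For d9 against d5 they were 3108 to 6048 with acetate (5480) and 2803 to 5425 without (4895). Scaling by library size only moved the median of all genes by -0.10 in both d9-to-d5 comparisons, where 33.9% of calls with acetate were then higher against 44.5%, and 32.3% without acetate against 42.8%.

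Without the 2 d9 libraries the sign turned for *Itga1* and *Itga2* with acetate at d9 (0.22 and 0.0513) and for *Itgae* in d9 against d5 with acetate (0.0370). With library size only it turned for *Itgal* with acetate on average (-0.0057) and *Itgb2* in d9 against d5 with acetate (-0.0254). Leaving out single libraries, values ran from -0.29 to 0.16 for *Itga1*, -0.59 to 0.16 for *Itga2* and -0.20 to 0.0167 for *Itgal* with acetate at d9. They ran from -0.92 to 0.73 for *Itga4*, -0.0113 to 0.21 for *Itgal* and -0.24 to 0.17 for *Itgb7* at d5, and -0.0517 to 0.0589 for *Itgal* on average. For d9 against d5 with acetate they ran from -0.0412 to 0.71 for *Itga2*, -0.37 to 0.0750 for *Itgae* and -0.15 to 0.0129 for *Itgb1*, and for the difference from -0.27 to 0.48 for *Itga2* and -0.0373 to 0.39 for *Itgae*. None of these was past the threshold as reported. Counts of 3 to 42 per library limit *Cdh1*, *Itga1* and *Itga4* at d5.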

Other observations

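Adhesion and homing genes that are neither integrins nor cadherins were listed as 12 genes, of which 11 were tested. In d9 against d5, 4 rose and 3 fell with acetate and 3 rose and 1 fell without, where 41.6 and 37.1% of all genes passed in either direction. *Ly6c2*, a surface protein of activated and memory CD8 cells, rose by 2.92 ± 0.28 with acetate and 3.23 ± 0.29 without (log2, edgeR adjusted p = 4.38e-05 and 2.45e-05). *Selplg*, the selectin ligand PSGL-1, rose by 1.04 ± 0.16 without acetate (adjusted p = 6.79e-04 in edgeR). *Cd226* (DNAM-1), an adhesion and activating receptor that works with LFA-1, was the 1 gene past the threshold with acetate at d5, where 0.66% of all genes were called higher (1.75 ± 0.33, edgeR adjusted p = 0.0354), and none passed at d9 in edgeR, where *Ccr7* had 1.17 ± 0.35 (adjusted p = 0.187). *Cd226* was lower in d9 than in d5 with acetate (-1.89 ± 0.29, edgeR adjusted p = 5.53e-04). The median log2 change of the list in d9 against d5 was 0.25 with acetate and 0.28 without, against -0.01 over all tested genes.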
